A study of Caenorhabditis elegans with 6 samples.

Results

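RNA of whole young adult *C. elegans* was examined for 32 genes of the muscle sarcomere and the actin cytoskeleton: 5 myosin heavy chain genes, 3 myosin light chain genes, paramyosin, 5 actins, tropomyosin, 10 troponin genes and 7 genes for giant, attachment and actin-binding proteins. They were chosen by name, and all 32 were found among the 46778 gene identifiers of each library. All 32 passed the filter on low counts and were tested with 16564 other genes. 3 libraries came from *vhl-1* mutants, strain CB5602, which carry the allele *ok161*, and 3 from wild type animals of strain N2. All animals were age-synchronized young adults kept at 20 °C without starvation, and the labels call the libraries of a genotype biological replicates. The study compared these genotypes to find genes that depend on VHL-1, the worm counterpart of the VHL tumor suppressor. Since whole animals were used, every tissue contributed RNA, and the number of animals in a sample is not given in the sources used here.

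The sarcomere is the contractile unit of striated muscle, in which thick filaments of myosin pull on thin filaments of actin. In *C. elegans*, thick filaments form around a core of paramyosin, thin filaments carry tropomyosin and the calcium-responsive troponin complex, and both are anchored to the muscle cell membrane at dense bodies and M-lines. Body wall muscle, which moves the animal, and pharyngeal muscle, which takes up food, use different myosin heavy chains: UNC-54 and MYO-3 in the body wall, and MYO-1 and MYO-2 in the pharynx. VHL-1 marks the transcription factor HIF-1 for degradation, so that *vhl-1* mutants keep HIF-1 active at normal oxygen.

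The number of reads on genes lay between 60286645 and 82910026 in *vhl-1* libraries and between 52462303 and 78205244 in wild type libraries. *vhl-1* itself had 0.0830, 0.0369 and 0.0162 CPM (reads scaled to 1e+06 per library after TMM normalization) in *vhl-1* mutants, against 6.37, 7.08 and 7.49 CPM in wild type animals. The libraries of both genotypes thus carried the *vhl-1* level that their labels call for. Libraries of 1 genotype also differed in other tissues: 12 markers of germline and oocytes together had between 1533 and 3077 CPM in *vhl-1* libraries and between 1881 and 3473 CPM in wild type libraries, with the lowest sum in the second *vhl-1* library.

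None of the 32 genes passed edgeR's quasi-likelihood test between genotypes, at an adjusted p under 0.05 over all 16596 genes tested, where 1.25% of all genes were called, 0.874% as higher and 0.374% as lower in *vhl-1* mutants. The smallest adjusted p among them was 0.57. No member had an unadjusted p under 0.05 either, where 9.38% of all genes tested did, and DESeq2 called 0 of the 32 (3.4% of all genes with an adjusted p). Of the members, 14 had a positive and 18 a negative log2 fold change of *vhl-1* mutants over wild type animals. Of these, 15 small ones changed sign with the processing or with 1 library left out. The median over the members was -0.01, beside 0.01 over all genes tested. The median absolute log2 fold change was 0.10 for the members and 0.14 for all genes tested. A missed threshold does not show equal levels, so the 95% intervals of the differences are given as well. The interval lay within 0.5 of 0 on the log2 scale for 24 of the 32 genes, and within 1 for 31. In whole animals, a change in the amount of muscle and a change in RNA per muscle cell cannot be told apart.

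**Figure D1:**
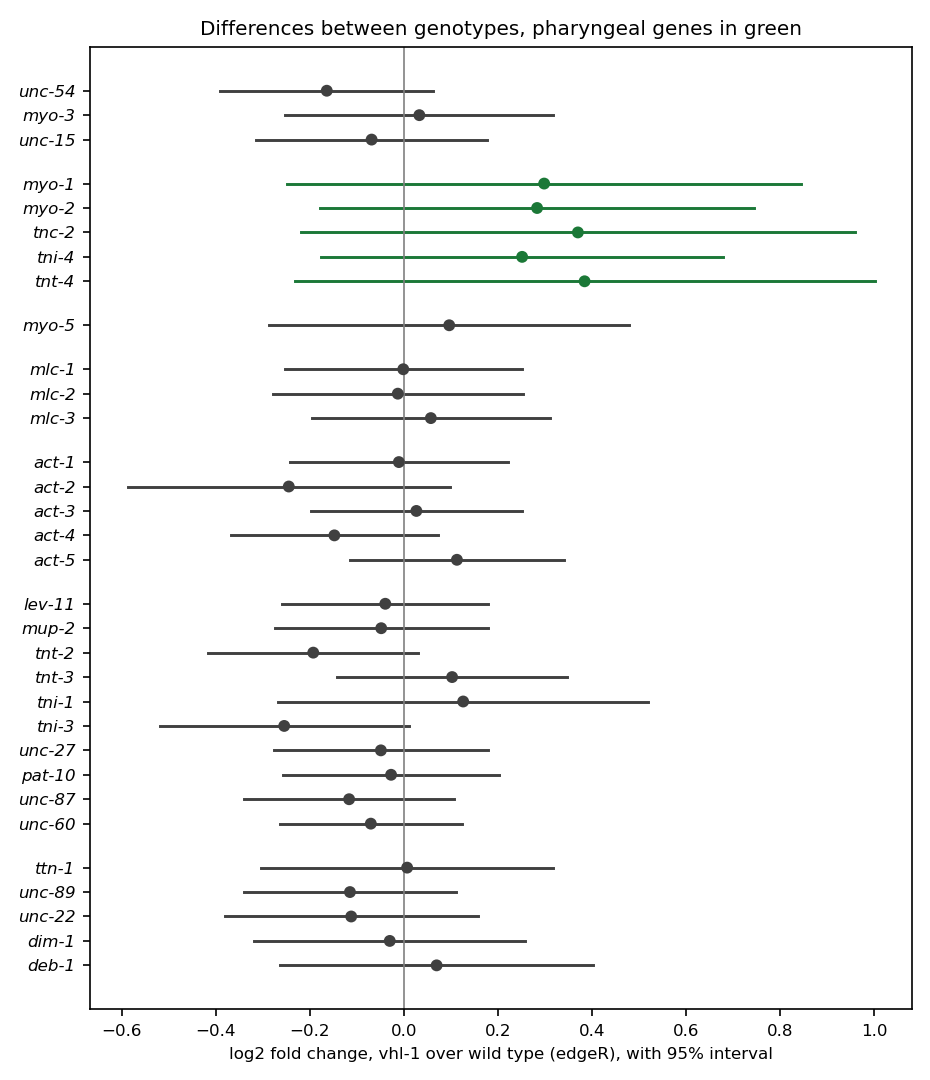
Log2 fold change of *vhl-1* mutants over wild type animals for each of the 32 genes (x axis), with its 95% interval from edgeR as a line, by class of gene down the page. All 32 intervals cross 0, and the 5 pharyngeal genes in green have the highest estimates and the widest intervals to the right.

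Together the 32 genes took 2.21%, 2.43% and 2.22% of the reads on genes in the 3 *vhl-1* libraries, and 2.30%, 2.29% and 2.39% in the 3 wild type libraries. The ranges of both genotypes overlapped, and the mean share was 2.29% ± 0.121 in *vhl-1* mutants and 2.32% ± 0.0545 in wild type animals (SD, n = 3 each). The thick filament genes *unc-54*, *myo-3* and *unc-15* accounted for 0.646% ± 0.0446 in *vhl-1* mutants and 0.687% ± 0.0160 in wild type animals (SD, n = 3 each). The 5 pharyngeal genes accounted for 0.0615% ± 0.0184 in *vhl-1* mutants and 0.0488% ± 0.00335 in wild type animals (SD, n = 3 each). Their shares overlapped, with 0.0461%, 0.0819% and 0.0564% in *vhl-1* libraries against 0.0492%, 0.0520% and 0.0453% in wild type libraries. Without the second *vhl-1* library, the *vhl-1* mean was 0.0513%.

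Per kb of exon, the levels spanned nearly 3 orders of magnitude, with the same genes at both ends in both genotypes. *pat-10*, which encodes the troponin C of body wall muscle, had the highest level, 1398 ± 53.5 CPM per kb in *vhl-1* mutants and 1425 ± 128 in wild type animals (SD, n = 3 each). The lowest was that of *ttn-1*, which encodes a titin-like giant protein, with 2.38 ± 0.40 CPM per kb in *vhl-1* mutants and 2.37 ± 0.115 in wild type animals (SD, n = 3 each). *unc-89*, the obscurin-like protein of the M-line, and *unc-22*, twitchin, lay low as well, at 10.5 and 22.1 CPM per kb in *vhl-1* mutants. Among the 4 assigned myosin heavy chains the order in *vhl-1* mutants was *unc-54* with 673 ± 51.4 CPM per kb, *myo-3* with 81.5 ± 9.44, *myo-1* with 33.8 ± 11.4 and *myo-2* with 33.6 ± 9.28. In wild type animals these genes had 755 ± 34.1, 79.7 ± 7.31, 27.5 ± 1.69 and 27.6 ± 1.84 CPM per kb (SD, n = 3 each). The pharyngeal pair, *myo-1* and *myo-2*, did not differ beyond its spread in either genotype, while *unc-54* stood far above its body wall partner *myo-3*. *myo-5*, a further muscle myosin heavy chain gene, had 7.47 ± 1.39 CPM per kb in *vhl-1* mutants and 6.99 ± 0.905 in wild type animals (SD, n = 3 each). *unc-60*, which encodes ADF/cofilin, was left out of the levels per length, because the annotation used for lengths splits its locus: *F53E2.2*, which shares its first exon there, had no row of its own in the count tables.

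**Figure D2:**
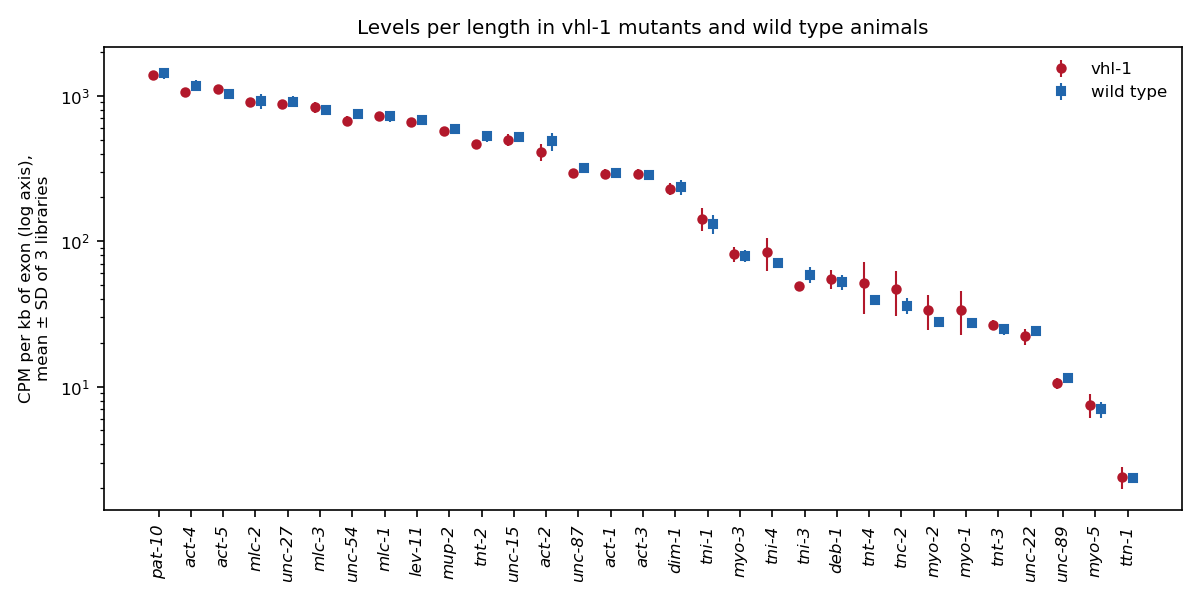
Level per kb of exon (CPM per kb, log axis) of 31 genes in *vhl-1* mutants (circles) and wild type animals (squares), as mean ± SD of 3 libraries each, in the order of the wild type level. The genotypes lie close for each gene, and the error bars of *vhl-1* mutants are widest for *tnt-4*, *tnc-2*, *myo-1* and *myo-2*.

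*unc-54*, the major myosin heavy chain of body wall muscle, lies on chromosome I from 14855901 to 14863482 (WBcel235). It had 4124, 4521 and 3890 CPM in *vhl-1* mutants, against 4512, 4613 and 4918 CPM in wild type animals. The groups overlapped at the second *vhl-1* library, and the log2 fold change was -0.16 (95% interval -0.39 to 0.06, edgeR adjusted p = 0.76). *myo-3* (chromosome V, 12226817 to 12234343) encodes the heavy chain found in the middle of the same thick filaments. It had 475, 563 and 455 CPM in *vhl-1* mutants, against 437, 500 and 523 CPM in wild type animals, with a log2 fold change of 0.03 (95% interval -0.25 to 0.32). Paramyosin, *unc-15* (chromosome I, 7376604 to 7383197), is used in the body wall and in the pharynx, and had 1616, 1889 and 1619 CPM in *vhl-1* mutants, against 1705, 1744 and 1924 CPM in wild type animals. For all 3 genes the second *vhl-1* library was the highest of its genotype.

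The myosin light chains also had log2 fold changes near 0. *mlc-3*, the essential light chain, had 997, 1180 and 1028 CPM in *vhl-1* mutants, against 988, 972 and 1119 CPM in wild type animals, a log2 fold change of 0.06 (95% interval -0.20 to 0.31, edgeR adjusted p = 1.00). The groups overlapped, with the second *vhl-1* and the third wild type library highest. *mlc-1* and *mlc-2*, the regulatory light chains, are close copies that lie 2623 bp apart on chromosome X in opposite directions. Reads of 50 bp can fit both copies, and how such reads were counted is not given in the sources used here, so their single values are uncertain. Added together they had 1418 ± 101 CPM in *vhl-1* mutants and 1424 ± 145 CPM in wild type animals (SD, n = 3 each).

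The same holds for the actins. *act-1*, *act-2* and *act-3* lie within 1 cluster on chromosome V, with gaps of 2278 and 2897 bp, and *act-4*, which encodes a further actin used in muscle, lies on chromosome X from 4960621 to 4964413. *act-4* had 1671, 1723 and 1698 CPM in *vhl-1* mutants, against 1830, 1751 and 2060 CPM in wild type animals. All 3 *vhl-1* libraries were below all 3 wild type libraries, but the difference was small, with a log2 fold change of -0.15 (95% interval -0.37 to 0.07, edgeR adjusted p = 0.80). *act-1* to *act-4* added together had 3045 ± 23.5 CPM in *vhl-1* mutants and 3319 ± 202 CPM in wild type animals (SD, n = 3 each). The libraries of this sum, 3018, 3060 and 3057 CPM in *vhl-1* mutants against 3359, 3100 and 3499 CPM in wild type animals, did not overlap, and the sum was not put to a test. Of all genes tested, 14.4% did not overlap. The sum of *act-1* to *act-3* overlapped, with 1347, 1337 and 1359 CPM in *vhl-1* mutants against 1529, 1349 and 1439 CPM in wild type animals. The log2 fold change was -0.01 for *act-1* and 0.03 for *act-3*. *act-5*, the actin of intestinal microvilli and so a gene of another tissue, had 1327, 1521 and 1415 CPM in *vhl-1* mutants, against 1305, 1235 and 1403 CPM in wild type animals. Its log2 fold change was 0.11 (95% interval -0.11 to 0.34).

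*act-2* stood apart from the other actins in how it varied. It had 593, 455 and 528 CPM in *vhl-1* mutants, against 724, 572 and 571 CPM in wild type animals, a log2 fold change of -0.24 (95% interval -0.59 to 0.10, edgeR adjusted p = 0.78). The groups overlapped, since the first *vhl-1* library was above 2 of the 3 wild type libraries. It was the only one of the 32 genes that was below its genotype's mean in the second *vhl-1* library, and it was highest in the first wild type library. The summed germline and oocyte markers had their lowest and highest values in the same libraries, with 3077, 1533 and 2454 CPM in *vhl-1* mutants and 3473, 2341 and 1881 CPM in wild type animals. The part of the germline in the *act-2* values was not tested. Within a library, the ratio of *act-2* to *act-4* reads was 0.355, 0.264 and 0.311 in *vhl-1* mutants and 0.396, 0.326 and 0.277 in wild type animals.

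**Figure D3:**
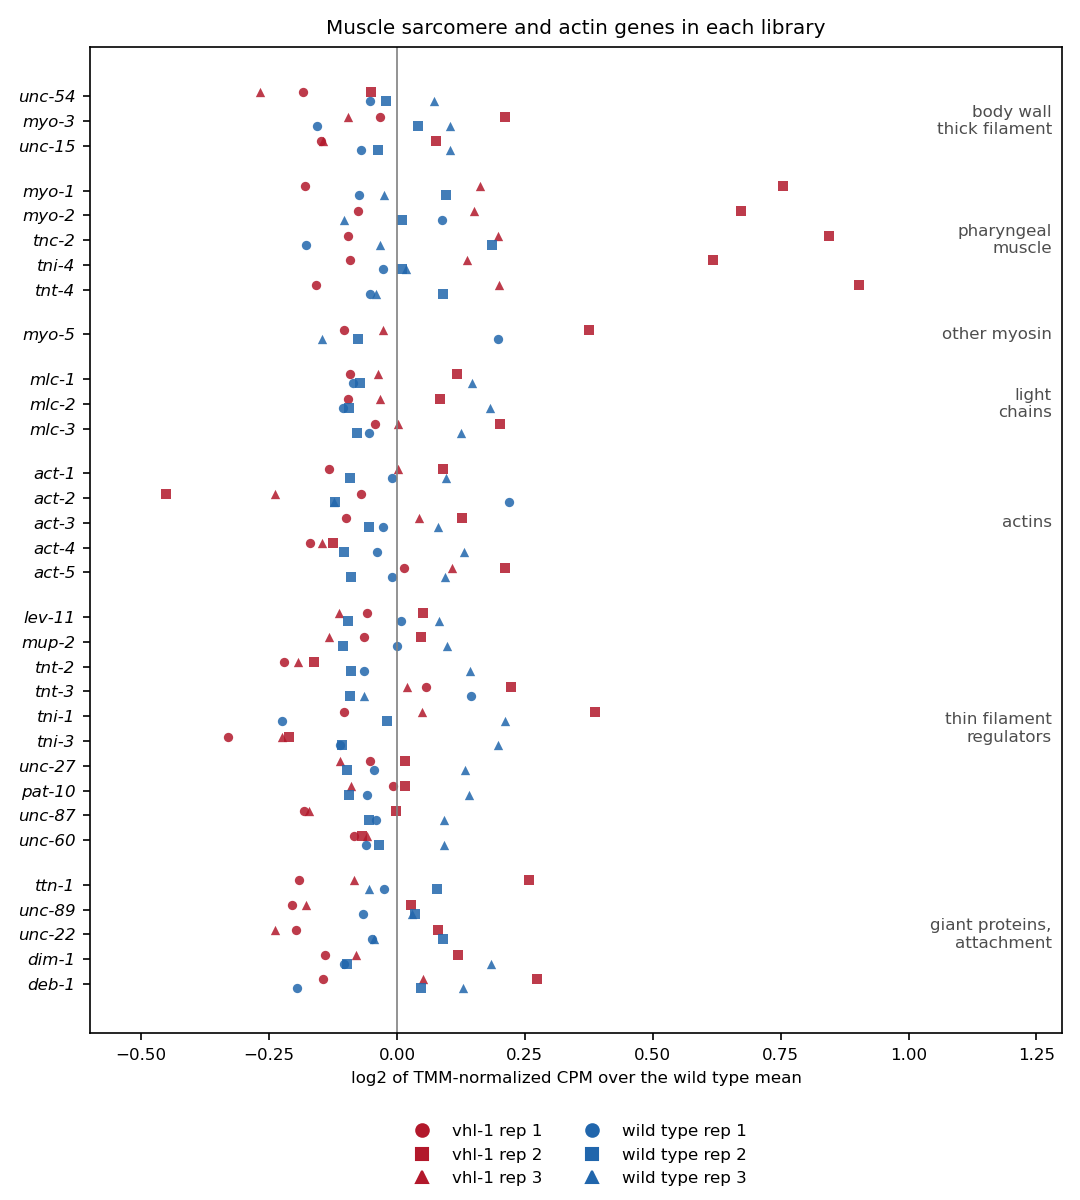
Level of each of the 32 genes in each library as log2 of its CPM over the wild type mean (x axis), *vhl-1* libraries in red above wild type libraries in blue, with a symbol for each replicate number. The second *vhl-1* library (red squares) lies between 0.62 and 0.90 for the 5 pharyngeal genes, to the right of all other points, and at -0.45 for *act-2*.

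Of the troponin genes outside the pharynx, *tni-3* and *tnt-2* had the lowest log2 fold changes, and neither passed the test. *tni-3*, a troponin I gene (chromosome V, 16833638 to 16835128), had 44.3, 48.1 and 47.7 CPM in *vhl-1* mutants, against 51.6, 51.7 and 63.9 CPM in wild type animals. *tnt-2*, a troponin T gene (chromosome X, 8721546 to 8723550), had 686, 715 and 699 CPM in *vhl-1* mutants, against 765, 752 and 883 CPM in wild type animals. For both genes the groups did not overlap. The log2 fold change was -0.25 for *tni-3* (95% interval -0.52 to 0.01, edgeR adjusted p = 0.57) and -0.19 for *tnt-2* (95% interval -0.42 to 0.03, edgeR adjusted p = 0.65). With *act-4*, these were the only members whose groups did not overlap, 3 of 32 or 9.38%, where 14.4% of all genes tested did not overlap. All 3 were lower in *vhl-1* mutants, as were 7.48% of all genes tested, while no member and 6.97% of all genes tested lay apart as higher. When libraries were scaled by size alone, an alternative chosen after the values were seen, these 3 genes still did not overlap and *unc-54* (lower in *vhl-1* mutants) and *act-5* (higher) did not either. That made 5 of 32 members or 15.6%, where 15% of all genes tested did not overlap under this scaling.

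Besides *tni-3* and *tnt-2*, whose groups did not overlap, the troponin genes outside the pharynx had log2 fold changes of smaller size. *mup-2*, which encodes troponin T, had 832, 899 and 794 CPM in *vhl-1* mutants, against 870, 809 and 931 CPM in wild type animals, a log2 fold change of -0.05 (95% interval -0.28 to 0.18, edgeR adjusted p = 1.00). Troponin I from *unc-27* gave -0.05 and troponin C from *pat-10* gave -0.03. *tni-1*, a further troponin I gene of the body wall, gave 0.13 with a wider interval of -0.27 to 0.52, and *tnt-3*, a troponin T gene, gave 0.10. *lev-11*, which encodes tropomyosin, had 1553, 1675 and 1496 CPM in *vhl-1* mutants, against 1627, 1515 and 1714 CPM in wild type animals, and its log2 fold change was -0.04. The groups overlapped for all 5 of *mup-2*, *unc-27*, *pat-10*, *tni-1* and *lev-11*. *unc-87*, a calponin-like protein that bundles actin, and *unc-60*, which turns over actin filaments, gave -0.12 and -0.07.

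Among the giant and attachment proteins, *unc-22* had 487, 591 and 474 CPM in *vhl-1* mutants, against 540, 595 and 542 CPM in wild type animals. Twitchin, its product, is a kinase of the thick filament that tunes relaxation, and its log2 fold change was -0.11 (95% interval -0.38 to 0.16, edgeR adjusted p = 0.94). *deb-1*, the vinculin of the dense bodies, had 185, 247 and 211 CPM in *vhl-1* mutants, against 178, 211 and 223 CPM in wild type animals, with a log2 fold change of 0.07 (95% interval -0.26 to 0.40, edgeR adjusted p = 1.00). For both genes the groups overlapped. *unc-89*, *ttn-1* and *dim-1*, an immunoglobulin-domain protein that acts with twitchin, gave -0.11, 0.01 and -0.03.

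The 5 genes of pharyngeal muscle gave the highest log2 fold changes of all members, and 1 library made most of them. *myo-2* (chromosome X, 12468061 to 12475348) had 166, 279 and 194 CPM in *vhl-1* mutants, against 186, 176 and 163 CPM in wild type animals. *myo-1* (chromosome I, 7258946 to 7267057) had 157, 300 and 199 CPM in *vhl-1* mutants, against 169, 190 and 175 CPM in wild type animals. Both myosins were highest in the second and next highest in the third *vhl-1* library, while the first *vhl-1* library lay among the wild type libraries or below them. The troponin genes of the pharynx followed the same order. *tnt-4*, a troponin T gene, had 48.5, 101 and 62.2 CPM in *vhl-1* mutants, against 52.2, 57.6 and 52.6 CPM in wild type animals. *tnc-2*, a troponin C gene whose exons overlap those of *clec-143* on the opposite strand over 157 bp, had 27.6, 52.9 and 33.8 CPM in *vhl-1* mutants, against 26.1, 33.6 and 28.8 CPM in wild type animals. *tni-4*, a troponin I gene, had 54.2, 88.5 and 63.5 CPM in *vhl-1* mutants, against 56.6, 58.1 and 58.4 CPM in wild type animals. In all 5 genes the groups overlapped, and the second *vhl-1* library was between 1.52 and 1.85 times the mean of the other 5 libraries.

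None of these pharyngeal differences passed the test. The log2 fold change was 0.38 for *tnt-4* (95% interval -0.23 to 1.00), 0.37 for *tnc-2* (-0.22 to 0.96), 0.30 for *myo-1* (-0.25 to 0.84), 0.28 for *myo-2* (-0.18 to 0.74) and 0.25 for *tni-4* (-0.18 to 0.68). Their adjusted p in edgeR's test lay between 0.83 and 0.88. The median of the 5 genes was 0.30 with all libraries, and 0.03 without the second *vhl-1* library, where the estimates lay between 0.0020 for *myo-1* and 0.06 for *tnc-2*. For *tnt-4* the interval reached up to 200.2% of the wild type level, and 3 against 3 libraries thus bound this gene only loosely.

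The libraries of 1 genotype differed for the members as a group. In the second *vhl-1* library, 31 of the 32 genes were above the *vhl-1* mean, against 2 in the first and 6 in the third, while 54.2% of all genes tested were above it. In wild type animals, 23 of 32 were above their genotype's mean in the third library, 6 in the first and 10 in the second. The size of this common movement was small, with a median deviation of the members of 0.12 on the log2 scale in the second *vhl-1* library and 0.10 in the third wild type library. The SD of log2 CPM within a genotype had a median over the members of 0.12 in *vhl-1* mutants and 0.11 in wild type animals, beside 0.22 and 0.21 over all genes tested, which include genes of much lower counts. For the 5 pharyngeal genes the SD had a median of 0.47 in *vhl-1* mutants and 0.09 in wild type animals.

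Markers of other tissues moved with these libraries. All 12 germline and oocyte markers were below the *vhl-1* mean in the second *vhl-1* library, by a median of 0.92 on the log2 scale, and all 12 were below the wild type mean in the third wild type library, by a median of 0.70. Of 12 neuron markers, 11 were above the mean in the second *vhl-1* library and 12 in the third wild type library. Summed, the neuron markers had 478, 645 and 516 CPM in *vhl-1* mutants and 439, 502 and 525 CPM in wild type animals, and the 5 pharyngeal genes had 453, 821 and 552 CPM in *vhl-1* mutants and 490, 515 and 477 CPM in wild type animals. The third wild type library, with low germline markers, was thus high for body wall and neuron genes but not for pharyngeal ones. The 8 sperm markers were likewise low there, with summed levels of 318, 165 and 283 CPM in *vhl-1* mutants and 314, 251 and 215 CPM in wild type animals. The epidermis and cuticle markers did not share the order of the neuron markers in *vhl-1* mutants. Of 10 epidermis and cuticle markers, 4 were above the mean in the second *vhl-1* library and 8 in the third wild type library, and their sums were 7000, 5103 and 5984 CPM in *vhl-1* mutants and 5311, 6700 and 9004 CPM in wild type animals. Of 12 intestine markers, 9 were above the mean in the second *vhl-1* library and 10 in the third wild type library. Their sums were 6689, 7623 and 7037 CPM in *vhl-1* mutants and 6864, 7196 and 8422 CPM in wild type animals. These had the order of the neuron sums within each genotype. The 4 gonadal sheath markers summed to between 68.5 and 75.6 CPM in *vhl-1* mutants and between 77.2 and 99.8 CPM in wild type animals, which did not overlap. Taken singly, 1 of the 4 had groups that did not overlap, as did 14.4% of all genes tested, and edgeR's test called none. The part of these other tissues in the muscle values was not tested.

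**Figure D4:**
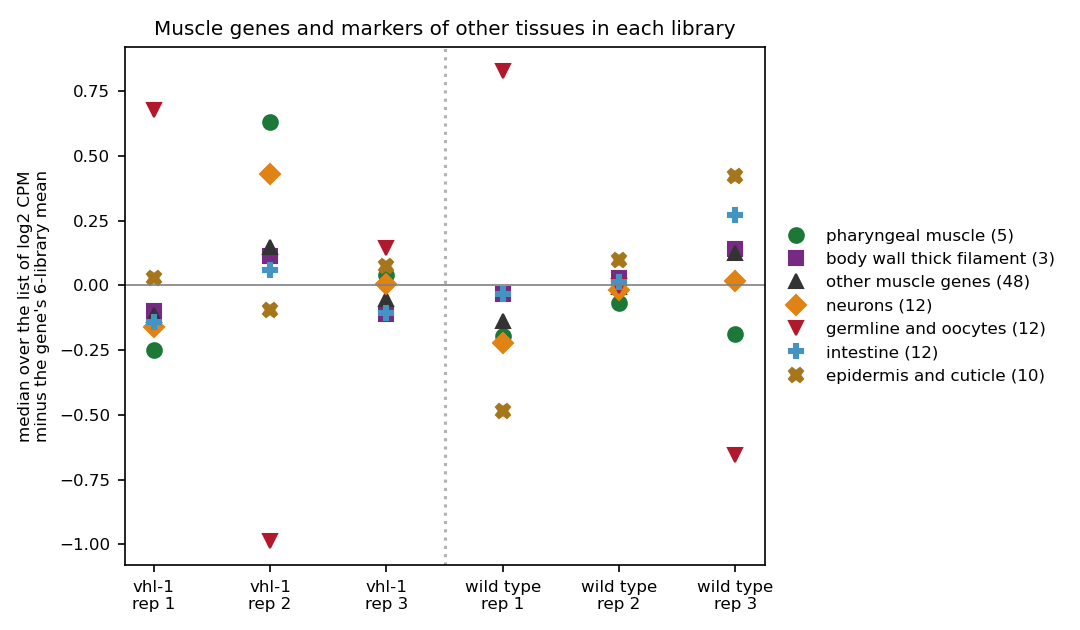
Median over each gene list of log2 CPM minus the gene's mean over 6 libraries (y axis), for each *vhl-1* library at the left and each wild type library at the right. Pharyngeal and neuron genes are highest in the second *vhl-1* library, at 0.63 and 0.43, where the germline and oocyte markers are lowest, at -0.99.

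Ratios within a library do not depend on its scaling. *unc-54* over *myo-3*, per kb, was 8.54, 7.90 and 8.41 in *vhl-1* mutants, against 10.2, 9.07 and 9.26 in wild type animals. The ratio was lower in all 3 *vhl-1* libraries, including the second. *unc-15* over *unc-54*, per kb, was 0.7099, 0.7570 and 0.7541 in *vhl-1* mutants, against 0.6846, 0.6853 and 0.7086 in wild type animals, with the first *vhl-1* library just above the third wild type one. For each of these ratios a two-sided exact permutation test gave p = 0.1, the smallest that 3 against 3 libraries allow. After Benjamini-Hochberg adjustment over the 9 ratios of single genes that were compared, the p of this test was 0.45. The test could not reach 0.05 with these libraries, and the ratios were chosen after the values were seen. Both ratios contain *unc-54*, so they are not independent. The groups overlapped in the other 7 ratios of single genes. Among them was *myo-1* over *myo-2*, with a mean of 0.997 ± 0.0638 in *vhl-1* mutants and 1.00 ± 0.0953 in wild type animals (SD, n = 3 each). The pharyngeal myosins *myo-1* and *myo-2* over the body wall myosins *unc-54* and *myo-3*, per kb, gave 0.0680, 0.110 and 0.0876 in *vhl-1* mutants and 0.0694, 0.0693 and 0.060 in wild type animals. Here the groups overlapped through the first *vhl-1* library, and the *vhl-1* mean of 0.0885 became 0.0778 without the second.

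**Figure D5:**
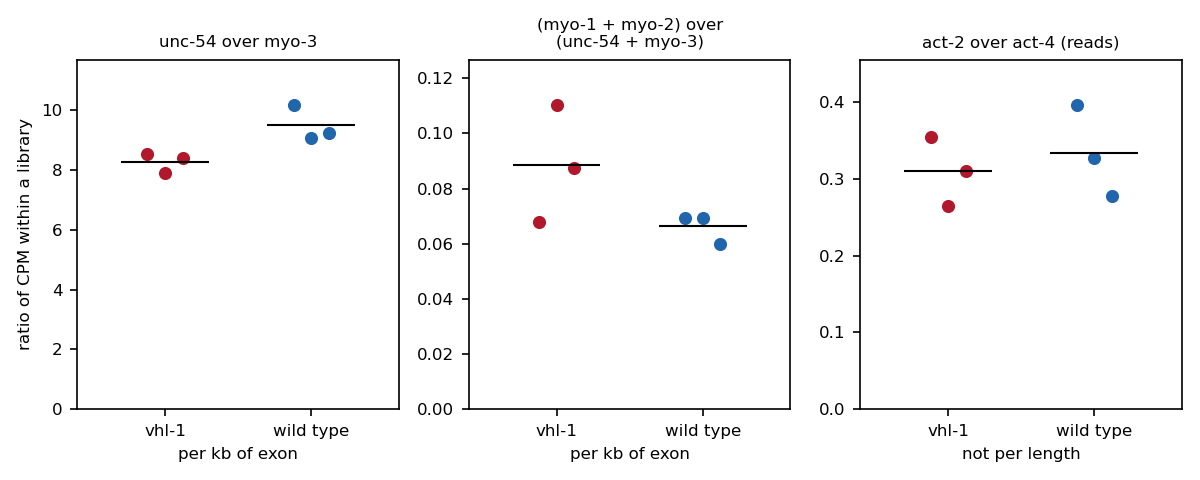
Ratios within each library for *vhl-1* mutants (left) and wild type animals (right): *unc-54* over *myo-3* and pharyngeal over body wall myosins, both per kb, and *act-2* over *act-4* in reads. Points are libraries and bars their means, and of these 3 ratios only *unc-54* over *myo-3* has groups that do not overlap, with 7.90 to 8.54 in *vhl-1* mutants and 9.07 to 10.2 in wild type animals.

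A further 48 muscle genes were compared in the same way. They comprise 19 genes for attachment and the M-line, 14 for excitation and calcium handling and 15 for assembly, actin binding and other roles. The last group includes *hlh-1*, *unc-120*, *ceh-22* and *eat-2*, which are not genes of assembly or actin binding. None was called by edgeR's quasi-likelihood test (1.25% of all genes tested) or by DESeq2 (3.4%), and none had an unadjusted p under 0.05 in either (9.38% of all genes tested in edgeR). Their median log2 fold change was -0.01, with 23 genes above 0 and 25 below, and the estimates ran from -0.28 to 0.83. *unc-98*, which encodes a zinc finger protein of the M-line and dense bodies, was the only 1 of the 48 whose groups did not overlap (14.4% of all genes tested), with 21.7, 22.3 and 21.5 CPM in *vhl-1* mutants against 23.3, 23.1 and 25.9 CPM in wild type animals. In the second *vhl-1* library 45 of the 48 were above their genotype's mean, and in the third wild type library 46 were, the same libraries as for the members.

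10 of the 32 genes lie on chromosome X, as *vhl-1* does (11307356 to 11308518, WBcel235). The nearest is *tni-1*, whose span from 11375887 to 11377470 begins 67.4 kb beyond *vhl-1*. It had 126, 178 and 141 CPM in *vhl-1* mutants, against 116, 134 and 157 CPM in wild type animals, with 2 of 3 *vhl-1* libraries inside the wild type range. The next nearest, *myo-2*, lies 1160 kb away. Over the 10 genes the log2 fold changes ran from -0.19 for *tnt-2* to 0.28 for *myo-2*, with a median of -0.02.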

How the data were processed

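Per the labels and the paper's methods, RNA of 3 *vhl-1* and 3 wild type samples was read from 1 end over 50 bp. The authors trimmed these reads with Trim Galore 0.4.3.1, aligned them with STAR 2.6.0b and counted them per gene with featureCounts 1.6.3, and deposited raw counts per gene for each library, with no normalization. The genome build, annotation release, strand setting and handling of reads with several matches are not given in the sources used here. The last line of each count table is empty, and 0 reads are on unnamed genes.

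Counts were used as deposited. Symbols, positions and exon lengths (exons of all transcripts merged) were taken from WBcel235 as annotated in Ensembl release 115, which held 46603 of the 46778 identifiers. The test was edgeR 4.0.16 under R 4.3.3 (filterByExpr, TMM, quasi-likelihood test on genotype in all 6 libraries, Benjamini-Hochberg adjustment over 16596 genes, threshold 0.05). The 95% intervals come from the fold change, its F statistic and the test's degrees of freedom. The p-values set the difference between genotypes against the spread between these libraries. The SD is over 3 libraries, and log2 CPM carries a prior count of 2. The smallest member count was 1437 reads, so counting error was small beside the median spread of the members between libraries. This need not hold for single genes with little spread, such as *tni-4* in wild type animals (SD of log2 CPM 0.024). No 2 replicates agreed within sampling noise (chi-square per gene at least 45.8).

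The members, classes, tissue markers and other muscle genes were listed by name with earlier results of these data known. Fully described are members whose groups did not overlap, the 5 largest fold changes and, as representatives, 7 genes (*unc-54*, *myo-2*, *act-4*, *mlc-3*, *mup-2*, *unc-22*, *deb-1*). *act-2*, *tni-4* and other members outside this rule, the ratios and the paralog sums were chosen after the values were seen. Alternatives were DESeq2 1.42.0, other normalizations and filters, a stricter threshold, a replicate block and leaving out each library. Protein and promoter sequences were not analysed here.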

Additional observations from a re-analysis of the deposited data

How the results depend on the processing

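The count of members called stayed at 0 under each alternative, and the smallest adjusted p over all 32 genes and 12 alternatives was 0.40. With few libraries, this says little about changes smaller than the intervals given. The 207 genes called over the whole table became 650 with DESeq2, 354 with the replicate block and 65 at an adjusted p under 0.01, and lay between 49 and 161 with 1 library left out. The sources used here do not say whether libraries of the same replicate number were handled together. Across genes, the libraries numbered 1, 2 and 3 deviated from their genotype means with correlations of 0.55, 0.44 and -0.016. The libraries numbered 1 and those numbered 2 each correlated best with their own number, and those numbered 3 did not. Germline and oocyte markers also differed between libraries of 1 genotype. The part of shared handling or of the germline in these correlations was not tested. The median of the members and that of the pharyngeal genes, the shares of reads and the within-genotype spread moved by less than 1 SD between replicates under each alternative run for them. For the pharyngeal median that SD was 0.32 and included the second *vhl-1* library. Without this library the median fell from 0.30 to 0.03, so the SD does not show a stable estimate. The median of the members was 0.03 with library size alone.

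Of 384 single estimates, 37 changed sign, all of 15 genes whose log2 fold change was at most 0.13 in size, and the other 17 genes kept theirs. With library size alone, *mlc-1* gave 0.036, *mlc-2* 0.025, *act-1* 0.025, *pat-10* 0.010 and *dim-1* 0.0075. *mlc-1* also gave 0.00051 without a filter, 0.0013 with at least 10 reads in every library and 7.5e-06 with the replicate block. *ttn-1* gave -0.0049 with the replicate block, -0.0040 with DESeq2 and -0.0017 when edgeR used the size factors of DESeq2. With 1 library left out, the ranges were -0.065 to 0.094 for *myo-3*, -0.065 to 0.21 for *myo-5*, -0.064 to 0.074 for *mlc-1*, -0.069 to 0.084 for *mlc-2*, -0.020 to 0.12 for *mlc-3*, -0.065 to 0.046 for *act-1*, -0.026 to 0.086 for *act-3*, -0.095 to 0.00054 for *lev-11*, -0.11 to 0.00010 for *mup-2*, -0.025 to 0.24 for *tni-1*, -0.11 to 0.019 for *unc-27*, -0.082 to 0.046 for *pat-10*, -0.14 to 0.097 for *ttn-1*, -0.11 to 0.067 for *dim-1* and -0.044 to 0.17 for *deb-1*. The cause was not tested.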
